A study of Mus musculus with 32 samples.

Results

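The mRNAs of 10 apoptosis genes were followed through donor T cells in a mouse model of graft-versus-host disease (GVHD): Bcl2, Bcl2l1, Mcl1, Bax, Bak1, Bcl2l11, Bbc3, Pmaip1, Fas and Fasl. They were taken by gene symbol, and all 10 were found among the 16741 genes of the RNA table, each in 1 row. Proteins of the Bcl2 family decide whether the outer membrane of mitochondria is opened, which releases cytochrome c and starts the caspases that dismantle the cell. Bcl2, Bcl-xL (Bcl2l1) and Mcl1 hold the membrane closed, Bax and Bak (Bak1) open it, and the BH3-only proteins Bim (Bcl2l11), Puma (Bbc3) and Noxa (Pmaip1) carry death signals by occupying the pro-survival members. Fas ligand (Fasl) on an activated T cell triggers caspases through the receptor Fas, and Bim and Fas are both known for removing T cells once a response is over.

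C57Bl6 mice were the donors and Balb/c mice, mismatched at the major histocompatibility genes, the recipients. Conventional CD4 cells, CD8 cells and regulatory T cells (Treg) of donor origin were sorted from spleen and lymph nodes for bulk RNA sequencing. The day 0 groups held cells before transplantation, with 2 libraries each for CD4, CD8 and Treg. The syngeneic groups came from untreated recipients without the mismatch and had 3 libraries each for CD4 and CD8. The allogeneic groups came from untreated recipients with GVHD and had 4 libraries each, and the Treg-treated groups came from recipients with GVHD that were also given Treg and had 4 libraries each for CD4 and CD8 and 3 for Treg. There were 31 libraries in 10 groups. Sample titles place the transplanted samples at day 6, whereas the series description gives 8 days. Both transplanted controls and treated recipients had received donor cells, so differences from day 0 hold the transfer itself. The labels give neither the age of the mice nor the dose or source of the Treg, and no syngeneic Treg group was among the samples. Nothing in the labels says that the libraries of a group came from separate mice, so p-values measure the spread between these libraries, which may be technical.

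Values are the authors' normalised counts, scaled between libraries. Reads could not be recovered from them, so the depth is unknown, and levels were compared between groups of 1 gene, not between genes. The 31 libraries had means over all genes of 1227 to 2385 normalised counts, and Pearson's r of log2 values over all genes was 0.883 to 0.977 for the 36 pairs of libraries within a group. A library label begins with JL019 or JL027, and the labels do not say what the prefix stands for. Cd4 was 8722 to 21481 in the other 12 CD4 libraries and 8.76 to 92.8 in the CD8 libraries, and Cd8a was 14160.0 to 61115 in the CD8 libraries. CD4 syngeneic JL019-2 went against its label, with 1659 for Cd4, 1956 for Cd8a and 5737 for Cd3e, and its 13 myeloid marker genes summed to 3675430 against 81574 and 90704 in the other CD4 syngeneic libraries. Its 8 natural killer cell genes summed to 41753 and its 10 erythroid genes to 504495. Tyrobp, at 39841, made up most of the natural killer cell sum, whereas Ncr1 reached only 468 and Klrb1c 692 in any library. The main results of comparisons that use the CD4 syngeneic group are given with and without JL019-2. All comparisons share 1 estimate of the spread, so this library also enters the SE and p-values of the others, which are given with it. In the libraries labelled Treg at day 0, Foxp3, the defining Treg factor, was 198 and 442, below 1145 and 978 in CD4 cells at day 0. After transplantation it was 265 to 293 in Treg, against 127 to 178 in CD4 cells of Treg-treated recipients, 337 to 579 in CD4 allogeneic and 103 to 453 in CD8 allogeneic libraries. Ikzf2, another Treg gene, chosen after its values were seen, was 19287 and 14183 in Treg against 1619 and 1770 in CD4 cells at day 0, and 11615 to 14862 in Treg after transplantation. The same markers moved with the arms in other libraries too: the myeloid sum was 1301 to 2065 in CD4 day 0, 5832 to 11572 in CD4 allogeneic, 24371 to 89359 in CD4 Treg-treated, 6277 to 6527 in CD8 day 0, 39199 to 62321 in CD8 syngeneic, 6798 to 11039 in CD8 allogeneic and 11946 to 32301 in CD8 Treg-treated libraries. In bulk samples, fewer cells of a type and less RNA per cell cannot be told apart.

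**Figure D1:**
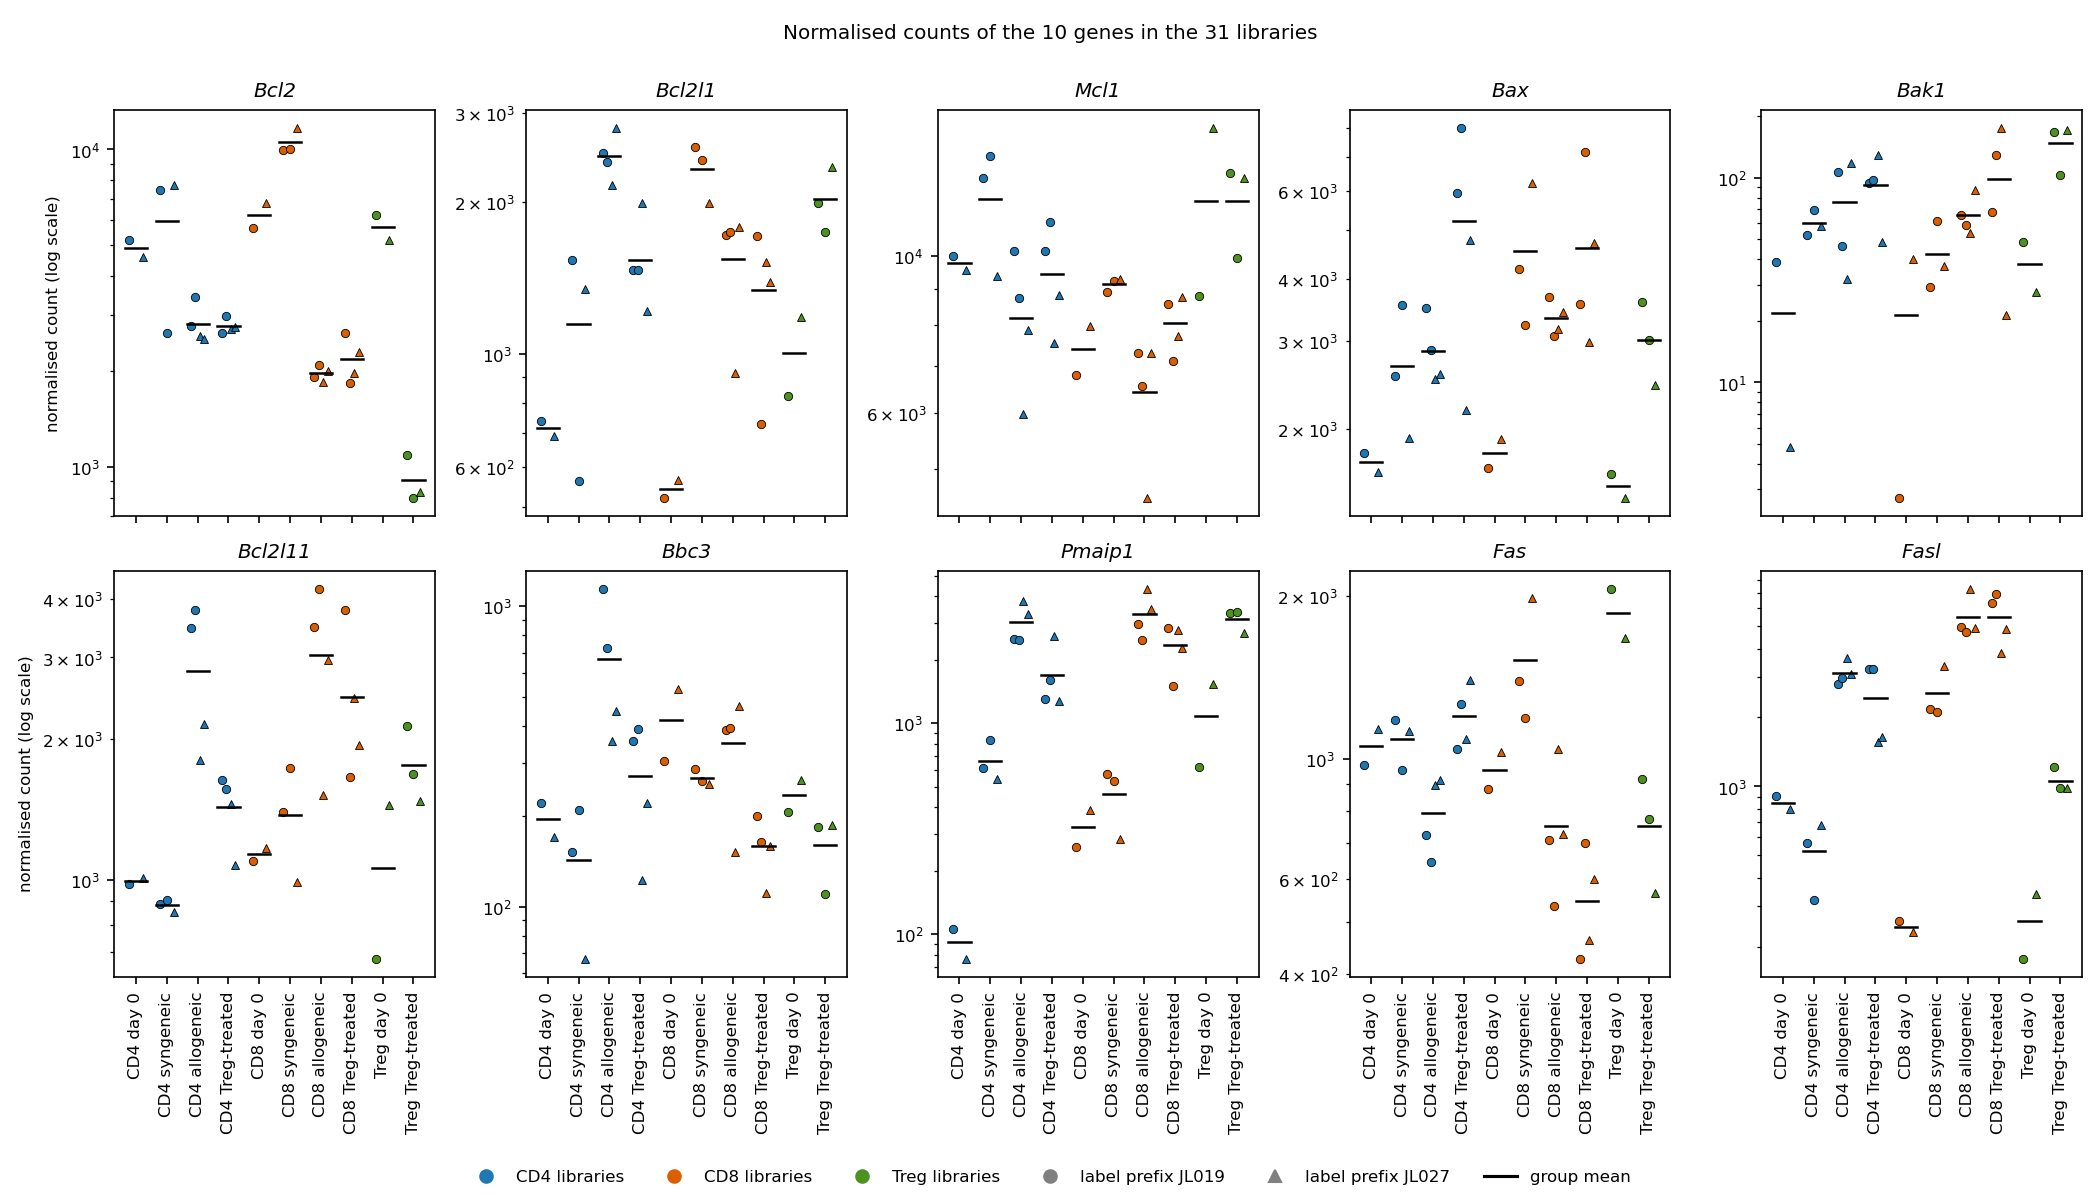
Normalised counts (log scale) of the 10 genes in each of the 31 libraries, 1 panel per gene. Points are libraries (blue CD4, orange CD8, green Treg; circles label prefix JL019, triangles JL027) and bars are group means. Group means of Pmaip1 run from 91.5 to 3316 and those of Fasl from 245 to 5487, while those of Mcl1 stay between 6426 and 12056.

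The pro-survival gene Bcl2 (ENSMUSG00000057329; GRCm38.p6 chr1:106538176-106714290, minus strand) was highest in resting and syngeneic cells and lowest after the allogeneic response. In CD4 cells it was 5189.9 and 4569 at day 0, 7463, 2637 and 7751 in syngeneic, 2774, 3427, 2577 and 2519.7 in allogeneic and 2642, 2993, 2727 and 2758 in Treg-treated libraries. In CD8 cells it was 5645 and 6781 at day 0, 9969, 10042 and 11645 in syngeneic, 1913, 2095, 1857 and 2009.7 in allogeneic and 2632, 1835, 1975 and 2294 in Treg-treated libraries. Treg held 6230.2 and 5192 at day 0 and 1089, 798 and 834 after transplantation. The CD8 syngeneic group lay above every other group and the Treg after transplantation below every other, while the CD4 allogeneic and Treg-treated libraries overlapped each other, as did those of CD8. Between neighbours in the order of the 10 means, the ranges of CD8 day 0, CD4 syngeneic and Treg day 0 also overlapped.

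Tests were made with limma on log2(value + 1) over all 16741 genes and called at a Benjamini-Hochberg adjusted p under 0.05, and log2 differences are on that scale. Bcl2 fell 5.36-fold in CD8 cells from the syngeneic mean of 10552 ± 947 (SD, n = 3) to 1969 ± 105 (SD, n = 4) in the allogeneic group (log2 difference -2.42, SE 0.24, adjusted p = 1.61e-08). Within the label prefixes the log2 difference was -2.32 within JL019 and -2.59 within JL027. In CD4 cells the allogeneic mean of 2824 ± 416 (SD, n = 4) was below the syngeneic mean of 5950.4 ± 2873 (SD, n = 3) (log2 difference -0.93, SE 0.24, adjusted p = 0.00799). Without CD4 syngeneic JL019-2, which is the low library of its group, the fall was larger (log2 difference -1.44, adjusted p = 1.44e-06). The CD4 call was lost without any one of CD4 syngeneic JL019-1 and JL027 (log2 differences -0.69 to -0.66, adjusted p 0.0740 to 0.0855). The fall was deeper in CD8 than in CD4 cells (difference of the allogeneic effects: log2 difference -1.49, SE 0.34, adjusted p = 0.00870; without CD4 syngeneic JL019-2 log2 difference -0.98, adjusted p = 0.0124). With only the groups compared in the fit, this difference missed the threshold (log2 difference -1.49, adjusted p = 0.0738). Against day 0 the allogeneic libraries were lower in CD8 (log2 difference -1.65, SE 0.27, adjusted p = 3.54e-05) and in CD4 cells (log2 difference -0.80, SE 0.27, adjusted p = 0.0338). Leaving out CD4 allogeneic JL019-1, JL027-1 and JL027-2 and CD4 day 0 JL019 and JL027 one at a time ended this Bcl2 call (log2 differences -0.89 to -0.70, adjusted p 0.0579 to 0.231). In Treg Bcl2 fell 6.30-fold from day 0 (log2 difference -2.66, SE 0.29, adjusted p = 1.71e-07), and after transplantation Treg were 3.07-fold below CD4 cells of the Treg-treated recipients (log2 difference -1.63, SE 0.24, adjusted p = 2.41e-05). Giving Treg left Bcl2 without a call in CD4 (log2 difference -0.01, 95% interval -0.47 to 0.45, adjusted p = 0.976) and CD8 cells (log2 difference 0.14, 95% interval -0.32 to 0.60, adjusted p = 0.819).

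Bcl2l1 (ENSMUSG00000007659; chr2:152758732-152833803, minus strand), which encodes Bcl-xL, had its lowest group means in CD8 and CD4 cells at day 0. CD4 libraries had 738 and 690.2 at day 0, 1533, 562 and 1349 in the syngeneic, 2503, 2402, 2160.1 and 2794 in the allogeneic and 1469, 1468, 1990.3 and 1219 in the Treg-treated group. CD8 libraries had 520.1 and 564 at day 0, 2564, 2425 and 1991 in syngeneic, 1722, 1742, 918 and 1784 in allogeneic and 1715, 728, 1525 and 1389 in Treg-treated libraries. In Treg it was 826 and 1184 at day 0 and 1992, 1746 and 2340.2 after transplantation. Both day 0 groups of conventional cells lay below every transplanted library other than CD4 syngeneic JL019-2 and CD8 Treg-treated JL019-2, and the ranges of neighbouring groups higher in the order overlapped. CD4 allogeneic cells had 3.45-fold the day 0 level (log2 difference 1.78, SE 0.34, adjusted p = 0.000220) and CD8 allogeneic cells 2.84-fold (log2 difference 1.46, SE 0.34, adjusted p = 0.00158). CD8 syngeneic cells were also above day 0, at 4.29-fold (log2 difference 2.09, SE 0.36, adjusted p = 0.000160), and in CD8 cells allogeneic against syngeneic missed the threshold (log2 difference -0.64, 95% interval -1.25 to -0.03, adjusted p = 0.136). In CD4 cells the allogeneic group was above the syngeneic group (log2 difference 1.22, SE 0.30, adjusted p = 0.00474). Without CD4 syngeneic JL019-2 the Bcl2l1 call was lost (log2 difference 0.77, adjusted p = 0.0836). The allogeneic effects of CD8 and CD4 cells differed (log2 difference -1.86, SE 0.42, adjusted p = 0.00779; without CD4 syngeneic JL019-2 log2 difference -1.41, adjusted p = 0.0283). In Treg the difference from day 0 missed the threshold (log2 difference 1.02, SE 0.36, adjusted p = 0.0560).

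Mcl1 (ENSMUSG00000038612; chr3:95656944-95663179, plus strand), whose protein is short-lived and needed by T cells, was called in none of the 15 comparisons. Its group means ran from 6426 in CD8 allogeneic to 12056 in CD4 syngeneic libraries, and the ranges of all neighbouring groups in that order overlapped. Allogeneic against syngeneic missed the threshold in CD4 cells (log2 difference -0.56, SE 0.21, adjusted p = 0.0739; without CD4 syngeneic JL019-2 log2 difference -0.45, adjusted p = 0.280) and CD8 cells (log2 difference -0.53, SE 0.21, adjusted p = 0.0728). Under quantile normalisation the allogeneic libraries were called lower than day 0 in CD4 (log2 difference -0.69, adjusted p = 0.0259) and CD8 cells (log2 difference -0.70, adjusted p = 0.0220).

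The effector genes gave few calls. Bax (ENSMUSG00000003873; chr7:45461695-45466903, minus strand) was 1459 to 1626 in Treg day 0 and 2189 to 7987 in CD4 Treg-treated libraries, and every transplanted group lay above the 3 day 0 groups in the order of the means. It was called in 1 comparison, CD8 syngeneic against day 0, where 4179, 3236 and 6202 stood above 1676 and 1917 (log2 difference 1.29, SE 0.38, adjusted p = 0.0164). Leaving out CD8 day 0 JL019 and CD8 syngeneic JL027 one at a time ended this Bax call (log2 differences 1.04 to 1.19, adjusted p 0.0904 to 0.158). The call was also lost with the library mean (log2 difference 0.23, adjusted p = 0.556) or, chosen after the data were seen, the myeloid marker sum as a covariate (log2 difference 0.71, adjusted p = 0.213). The Treg-treated CD4 libraries held 5930.0, 7987, 2189 and 4786 against 3492, 2878, 2517 and 2576 in allogeneic ones and overlapped them (log2 difference 0.73, 95% interval 0.13 to 1.34, adjusted p = 0.0718). Bak1 (ENSMUSG00000057789; chr17:27019812-27028627, minus strand) was low, between 2.73 and 174 in the 31 libraries, and its day 0 libraries disagreed, with 38.7 and 4.86 in CD4 and 2.73 and 40.2 in CD8 cells. Both allogeneic groups were called above day 0, at 107, 46.2, 32.2 and 118 in CD4 (log2 difference 2.14, SE 0.79, adjusted p = 0.0486) and 65.4, 58.6, 53.5 and 86.7 in CD8 cells (log2 difference 2.41, SE 0.79, adjusted p = 0.0212). In CD4 cells the allogeneic and day 0 libraries overlapped. Leaving out CD4 allogeneic JL019-1 and JL027-2 and CD4 day 0 JL027 one at a time ended this Bak1 call (log2 differences 0.76 to 1.91, adjusted p 0.114 to 0.727). It was also lost with the label prefix as a replicate block (log2 difference 2.14, adjusted p = 0.0541), with a pseudocount of 0.1 (log2 difference 2.25, adjusted p = 0.0516) and with only the groups compared in the fit (log2 difference 2.14, adjusted p = 0.0558). In CD8 cells it was lost without CD8 day 0 JL019 (log2 difference 0.68, adjusted p = 0.692). Bak1 overlaps Ggnbp1, which was at 4.98 to 69.9, and the library chemistry does not mark strand, so reads of these genes cannot be told apart where they overlap.

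Bcl2l11 (ENSMUSG00000027381; chr2:128126038-128162547, plus strand) encodes Bim, the BH3-only protein best known for T cell contraction. FOXO factors are known to raise its transcription when growth signals are withdrawn, NFAT and AP-1 factors are known regulators of Fasl in activated T cells, and STAT factors act downstream of T cell cytokines. The 250 bases before the annotated starts were therefore searched for short motifs on both strands: GTAAACA for FOXO, GGAAA for NFAT, TTCNNNGAA for STAT and TGANTCA for AP-1. GGAAA and TTCNNNGAA can share letters. Windows of Bcl2l11 (chr2:128125788-128126037, plus strand), Fas (chr19:34290409-34290658, plus strand) and Fasl (chr1:161788496-161788745, minus strand), from RefSeq with build GRCm38.p6, are shown for the receptor, its ligand and the BH3-only gene described next. They are written 5′ to 3′ on the gene's strand, with motif matches in capitals.
Bcl2l11: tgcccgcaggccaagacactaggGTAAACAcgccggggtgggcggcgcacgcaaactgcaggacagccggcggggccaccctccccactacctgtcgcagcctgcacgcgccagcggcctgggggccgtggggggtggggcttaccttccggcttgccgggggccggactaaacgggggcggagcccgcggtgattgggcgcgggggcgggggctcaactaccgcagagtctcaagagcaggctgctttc
Fas: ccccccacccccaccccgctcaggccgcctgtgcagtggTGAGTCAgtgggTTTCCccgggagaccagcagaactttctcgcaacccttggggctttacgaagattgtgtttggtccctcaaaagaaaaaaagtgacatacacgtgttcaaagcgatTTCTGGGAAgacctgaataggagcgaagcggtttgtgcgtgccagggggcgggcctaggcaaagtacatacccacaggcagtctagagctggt
Fasl: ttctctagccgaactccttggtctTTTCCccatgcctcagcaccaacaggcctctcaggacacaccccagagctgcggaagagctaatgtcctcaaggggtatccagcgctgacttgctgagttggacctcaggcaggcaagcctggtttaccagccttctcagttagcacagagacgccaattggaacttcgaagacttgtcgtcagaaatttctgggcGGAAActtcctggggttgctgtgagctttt
The Bcl2l11 window shown, before the first of 2 annotated starts, holds the FOXO letters, the Fas window those of AP-1, NFAT (on the other strand) and STAT, and the Fasl window those of NFAT on each strand. The other Bcl2l11 window (chr2:128127325-128127574) has none of the 4 motifs. Windows were found for 9 of the 10 genes, 14 windows in all. FOXO letters were in 2 of the 14 windows (1 each of Bcl2l11 and Bbc3) against 3.17% of all 32851 windows of that length in the genome's annotation. NFAT letters were in 10 of the 14 windows, over 8 genes, against 55.6% of all windows. STAT letters were in 1 of the 14 windows against 7.02% and AP-1 letters in 1 against 6.75%, that of Fas in both cases. These are matches of letters and do not show that a factor binds there.

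Bcl2l11 was raised in allogeneic cells of both types. In CD4 cells it was 979 and 1009.9 at day 0, 886, 903 and 853 in syngeneic, 3479, 3789.8, 1805 and 2158 in allogeneic and 1637, 1565, 1454 and 1073 in Treg-treated libraries. In CD8 cells the values were 1098 and 1171 at day 0, 1393, 1740.0 and 989 in syngeneic, 3484, 4206, 1519 and 2963 in allogeneic and 3797, 1658, 2456 and 1945 in Treg-treated libraries. Treg had 676 and 1445 at day 0 and 2134, 1682 and 1472 after transplantation. Every CD4 allogeneic library lay above every CD4 library of the other 3 arms, whereas CD8 allogeneic JL027-1 fell among the syngeneic libraries, and CD4 syngeneic libraries lay below all others apart from Treg day 0 JL019. CD4 allogeneic cells had 3.19-fold the syngeneic level (log2 difference 1.60, SE 0.32, adjusted p = 0.000820; without CD4 syngeneic JL019-2 log2 difference 1.62, adjusted p = 0.00331). By prefix, Bcl2l11 differed by 2.02 within JL019 and 1.21 within JL027. CD8 allogeneic cells had 2.21-fold (log2 difference 1.09, SE 0.32, adjusted p = 0.0155). Leaving out CD8 allogeneic JL019-2 and CD8 syngeneic JL027 one at a time ended this Bcl2l11 call (log2 differences 0.87 to 0.90, adjusted p 0.0644 to 0.117). The allogeneic effects of the cell types did not differ by the test (log2 difference -0.51, 95% interval -1.45 to 0.42, adjusted p = 0.672; without CD4 syngeneic JL019-2 log2 difference -0.53, adjusted p = 0.683). Against day 0 Bcl2l11 rose in CD4 (log2 difference 1.43, SE 0.37, adjusted p = 0.00461) and CD8 cells (log2 difference 1.33, SE 0.37, adjusted p = 0.00678), calls lost without CD4 day 0 JL019 (log2 difference 1.41, adjusted p = 0.0530) and without CD8 day 0 JL019 (log2 difference 1.28, adjusted p = 0.0706). With Treg it fell 1.96-fold in CD4 cells (log2 difference -0.92, SE 0.30, adjusted p = 0.0301). This call was lost without any one of several single libraries, which are named with the Treg comparison below. By prefix, Bcl2l11 differed by -1.18 within JL019 and -0.66 within JL027. In CD8 cells given Treg the libraries overlapped the allogeneic ones (log2 difference -0.28, 95% interval -0.90 to 0.33, adjusted p = 0.702). Bcl2l11 overlaps Acoxl, which was at 11.4 to 465, and reads in the overlap cannot be assigned without strand.

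Since Bim protein is held by Bcl2 protein, the ratio of the 2 normalised counts within each library was also described, without a test. Its absolute size has no meaning because the counts are not per length, but its change between groups does not depend on the scaling of libraries. In CD4 cells it was 0.189 and 0.221 at day 0, 0.119, 0.342 and 0.110 in syngeneic, 1.25, 1.11, 0.701 and 0.857 in allogeneic and 0.620, 0.523, 0.533 and 0.389 in Treg-treated libraries. In CD8 cells it was 0.194 and 0.173 at day 0, 0.140, 0.173 and 0.0849 in syngeneic, 1.82, 2.01, 0.818 and 1.47 in allogeneic and 1.44, 0.904, 1.24 and 0.848 in Treg-treated libraries. In Treg it was 0.109 and 0.278 at day 0 and 1.96, 2.11 and 1.76 after transplantation. Bcl2l11 itself was not called in Treg against day 0 (log2 differences 1.49 within JL019 and 0.026 within JL027). Bcl2 fell there by -2.74 and -2.64 on the log2 scale. All allogeneic libraries lay above all day 0 and syngeneic libraries of their cell type, all CD4 Treg-treated libraries lay between these and the allogeneic ones, and the CD8 Treg-treated libraries overlapped the allogeneic ones. The highest syngeneic value was that of CD4 JL019-2.

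**Figure D2:**
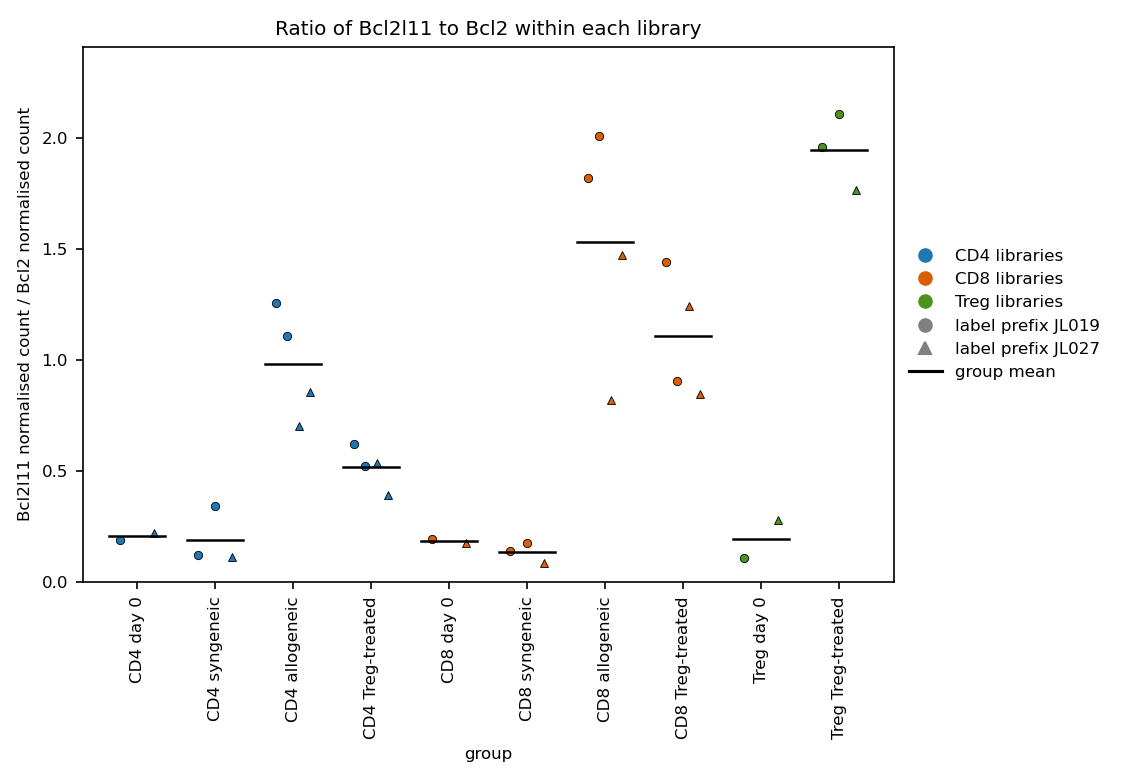
Ratio of the Bcl2l11 to the Bcl2 normalised count in each library, by group (blue CD4, orange CD8, green Treg; circles JL019, triangles JL027; bars are group means). Means were 0.190 in CD4 syngeneic, 0.979 in CD4 allogeneic, 0.516 in CD4 Treg-treated and 1.94 in Treg after transplantation.

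Bbc3 (ENSMUSG00000002083; chr7:16308398-16318334, plus strand), which encodes Puma, a p53 target and partner of all pro-survival members, was highest in CD4 allogeneic libraries. CD4 libraries had 222 and 171 at day 0, 152, 210.2 and 67.0 in the syngeneic, 1141, 729, 356 and 448 in the allogeneic and 356, 389, 123 and 221 in the Treg-treated group. CD8 libraries had 305 and 532 at day 0, 287, 261 and 255 in syngeneic, 389, 393, 151 and 465 in allogeneic and 201, 164, 111 and 159 in Treg-treated libraries, and Treg had 207 and 265 at day 0 and 184, 109.7 and 186 after transplantation. In CD4 cells the allogeneic libraries lay above all day 0 and syngeneic ones and overlapped the Treg-treated ones only through JL019-2 of the latter and JL027-1 of the former. The rise over syngeneic cells was 4.68-fold (log2 difference 2.22, SE 0.44, adjusted p = 0.000641; without CD4 syngeneic JL019-2 log2 difference 2.57, adjusted p = 0.000387). By prefix, Bbc3 differed by 2.35 within JL019 and 2.56 within JL027. The rise over CD4 day 0 (log2 difference 1.63, SE 0.49, adjusted p = 0.0162) was lost without any one of CD4 allogeneic JL019-1 and CD4 day 0 JL019 and JL027 (log2 differences 1.32 to 1.82, adjusted p 0.0599 to 0.162). In CD8 cells no rise was called over syngeneic (log2 difference 0.27, 95% interval -0.63 to 1.16, adjusted p = 0.721) or day 0 cells (log2 difference -0.32, 95% interval -1.34 to 0.69, adjusted p = 0.655). The difference of the allogeneic effects of the cell types missed the threshold (log2 difference -1.95, SE 0.62, adjusted p = 0.0696). It passed with the title number (the number that CD4 and CD8 libraries of an arm share in their titles) as a replicate block (log2 difference -1.95, adjusted p = 0.0329) and without CD4 syngeneic JL019-2 (log2 difference -2.30, adjusted p = 0.0335). With Treg, Bbc3 fell 2.46-fold in CD4 cells (log2 difference -1.28, SE 0.40, adjusted p = 0.0266), a call that several single libraries decided, as given with the Treg comparison below. By prefix, Bbc3 differed by -1.29 within JL019 and -1.27 within JL027. In CD8 cells it was 2.20-fold lower on the mean, which missed the threshold (log2 difference -1.05, 95% interval -1.87 to -0.22, adjusted p = 0.359).

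Pmaip1 (ENSMUSG00000024521), which encodes Noxa, the BH3-only partner of Mcl1, showed the largest log2 difference of the 10 genes over the 15 comparisons. It was 106 and 76.6 at day 0, 615, 834 and 543 in syngeneic, 2508, 2491, 3802 and 3308 in allogeneic and 1299, 1599.8, 2589 and 1273 in Treg-treated CD4 libraries. CD8 libraries had 259 and 389 at day 0, 577, 532 and 282 in syngeneic, 2967, 2479.5, 4329.6 and 3487 in allogeneic and 2848, 1500.3, 2785 and 2281 in Treg-treated libraries. Treg already had 618 and 1539 at day 0 and reached 3352, 3366 and 2690.0 after transplantation. CD4 day 0 libraries lay below those of every other group, and the allogeneic libraries of each cell type lay above all day 0 and syngeneic ones of that type. CD4 allogeneic cells had 33.1-fold the day 0 level (log2 difference 5.03, SE 0.36, adjusted p = 1.82e-11) and 4.56-fold the syngeneic level (log2 difference 2.19, SE 0.31, adjusted p = 1.49e-05; without CD4 syngeneic JL019-2 log2 difference 2.36, adjusted p = 2.33e-05). In CD8 cells these were 10.2-fold (log2 difference 3.35, SE 0.36, adjusted p = 3.77e-08) and 7.15-fold (log2 difference 2.87, SE 0.31, adjusted p = 8.37e-08), the latter with log2 differences of 2.29 within JL019 and 3.78 within JL027. CD4 syngeneic cells also rose over day 0, 7.26-fold (log2 difference 2.84, SE 0.38, adjusted p = 2.92e-06; without CD4 syngeneic JL019-2 log2 difference 2.67, adjusted p = 2.91e-05), whereas CD8 syngeneic cells were not called (log2 difference 0.48, 95% interval -0.29 to 1.25, adjusted p = 0.353). At day 0 it was 11.8-fold higher in Treg than in CD4 cells (log2 difference 3.42, SE 0.41, adjusted p = 4.57e-06) and 3.54-fold higher in CD8 than in CD4 cells (log2 difference 1.80, SE 0.41, adjusted p = 0.00899). Leaving out CD4 day 0 JL027 and CD8 day 0 JL027 one at a time ended this Pmaip1 call (log2 differences 1.51 to 1.57, adjusted p 0.163 to 0.183). Pmaip1 rose further in Treg after transplantation (log2 difference 1.68, SE 0.38, adjusted p = 0.00251). Without Treg day 0 JL019 the Pmaip1 call was lost (log2 difference 1.02, adjusted p = 0.205). With Treg given, Pmaip1 fell 1.79-fold in CD4 cells (log2 difference -0.88, SE 0.29, adjusted p = 0.0327). Several single libraries decided this call too, as given with the Treg comparison below.

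Fas (ENSMUSG00000024778; chr19:34290647-34327775, plus strand), the death receptor, was lower in allogeneic than in syngeneic libraries. It was 975 and 1134 at day 0, 1181, 955 and 1127 in syngeneic, 722, 644, 896 and 913 in allogeneic and 1042, 1264, 1089 and 1401 in Treg-treated CD4 libraries. In CD8 cells it was 879.5 and 1027 at day 0, 1392, 1189.5 and 1980.4 in syngeneic, 706, 535, 1042 and 727 in allogeneic and 427, 698, 463 and 599 in Treg-treated libraries, and in Treg 2059 and 1669 at day 0 and 918, 775 and 564 after transplantation. Allogeneic libraries lay below all syngeneic ones in both cell types, while the Treg-treated libraries lay above the allogeneic ones in CD4 cells and overlapped them at the low end in CD8 cells. Fas fell 2.02-fold in CD8 allogeneic against syngeneic cells (log2 difference -1.02, SE 0.23, adjusted p = 0.00161). By label prefix, the CD8 difference was -1.06 within JL019 and -1.19 within JL027. The CD4 difference missed the threshold (log2 difference -0.46, 95% interval -0.93 to 0.01, adjusted p = 0.200; without CD4 syngeneic JL019-2 log2 difference -0.55, adjusted p = 0.207). In Treg, Fas fell 2.48-fold from day 0 (log2 difference -1.33, SE 0.27, adjusted p = 0.00109). With Treg given, Fas rose 1.51-fold in CD4 cells (log2 difference 0.60, SE 0.21, adjusted p = 0.0429) and was lower in CD8 cells without a call (log2 difference -0.45, 95% interval -0.88 to -0.01, adjusted p = 0.442). The difference of these effects had an unadjusted p of 0.00169 and missed the threshold (log2 difference -1.05, SE 0.30, adjusted p = 0.898). The Fas call in CD4 cells given Treg was lost without any one of several single libraries, which are named with the Treg comparison below. After transplantation Treg had less Fas than CD4 cells of the Treg-treated recipients (log2 difference -0.69, SE 0.23, adjusted p = 0.0246). Leaving out CD4 Treg-treated JL019-2 and JL027-2 and Treg Treg-treated JL027 one at a time ended this Fas call (log2 differences -0.66 to -0.50, adjusted p 0.0595 to 0.161).

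Fasl (ENSMUSG00000000817; chr1:161780691-161788495, minus strand), the ligand of Fas, was raised in allogeneic cells and highest in CD8 cells. CD4 libraries had 905 and 797 at day 0, 569, 319 and 679.6 in the syngeneic, 2798, 2978, 3630.4 and 3107 in the allogeneic and 3258, 3265, 1559 and 1641 in the Treg-treated group. CD8 libraries had 258 and 231 at day 0, 2184, 2112 and 3359.7 in syngeneic, 4963, 4730.5, 7265 and 4936 in allogeneic and 6295, 6953, 3835 and 4867 in Treg-treated libraries, and Treg had 177 and 339 at day 0 and 1215, 984 and 986 after transplantation. The CD8 allogeneic and Treg-treated libraries overlapped each other and lay above all others, CD4 allogeneic, CD8 syngeneic and CD4 Treg-treated libraries overlapped below them, and CD4 syngeneic libraries were below those of CD4 day 0. In CD8 cells Fasl had already risen 10.4-fold in syngeneic libraries (log2 difference 3.35, SE 0.35, adjusted p = 2.07e-07) and stood 22.4-fold above day 0 in allogeneic ones (log2 difference 4.46, SE 0.33, adjusted p = 4.50e-11). The sum of 8 natural killer cell genes was 1105 to 1267 in CD8 day 0, 3682 to 5880.3 in CD8 syngeneic and 1811 to 2843 in CD8 allogeneic libraries, and its part in the Fasl differences was not tested. Allogeneic exceeded syngeneic 2.14-fold in CD8 cells (log2 difference 1.11, SE 0.29, adjusted p = 0.00640). In CD4 cells the syngeneic group was not called against day 0 (log2 difference -0.77, 95% interval -1.48 to -0.06, adjusted p = 0.151; without CD4 syngeneic JL019-2 log2 difference -0.45, adjusted p = 0.562), and allogeneic exceeded syngeneic 5.99-fold (log2 difference 2.64, SE 0.29, adjusted p = 2.36e-07; without CD4 syngeneic JL019-2 log2 difference 2.32, adjusted p = 3.83e-06). By prefix, Fasl differed by 2.76 within JL019 and 2.30 within JL027. The allogeneic effect was smaller in CD8 than in CD4 cells (log2 difference -1.53, SE 0.41, adjusted p = 0.0278). Leaving out CD4 allogeneic JL027-1, CD4 syngeneic JL019-2, CD8 allogeneic JL019-2 and JL027-2 and CD8 syngeneic JL027 one at a time ended this Fasl call (log2 differences -1.49 to -1.21, adjusted p 0.0544 to 0.104). CD8 allogeneic cells were 1.75-fold above CD4 allogeneic cells (log2 difference 0.79, SE 0.27, adjusted p = 0.0845). With the title number as a replicate block, that difference passed the threshold (log2 difference 0.79, adjusted p = 0.0401). At day 0 the order was the opposite, with CD8 cells 3.48-fold below CD4 cells (log2 difference -1.79, SE 0.38, adjusted p = 0.00465). Leaving out CD4 day 0 JL019 and CD8 day 0 JL027 one at a time ended this Fasl call (log2 differences -1.71 to -1.70, adjusted p 0.0726 to 0.0729). Treg were 3.29-fold below CD4 cells at day 0 (log2 difference -1.79, SE 0.38, adjusted p = 0.00491), a call lost without any one of CD4 day 0 JL019 and Treg day 0 JL019 (log2 differences -1.70 to -1.32, adjusted p 0.0764 to 0.176). Fasl rose 4.11-fold in Treg after transplantation (log2 difference 2.10, SE 0.35, adjusted p = 8.43e-05). It was then 2.29-fold lower in Treg than in CD4 cells of the same arm (log2 difference -1.11, SE 0.29, adjusted p = 0.00591).

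**Figure D3:**
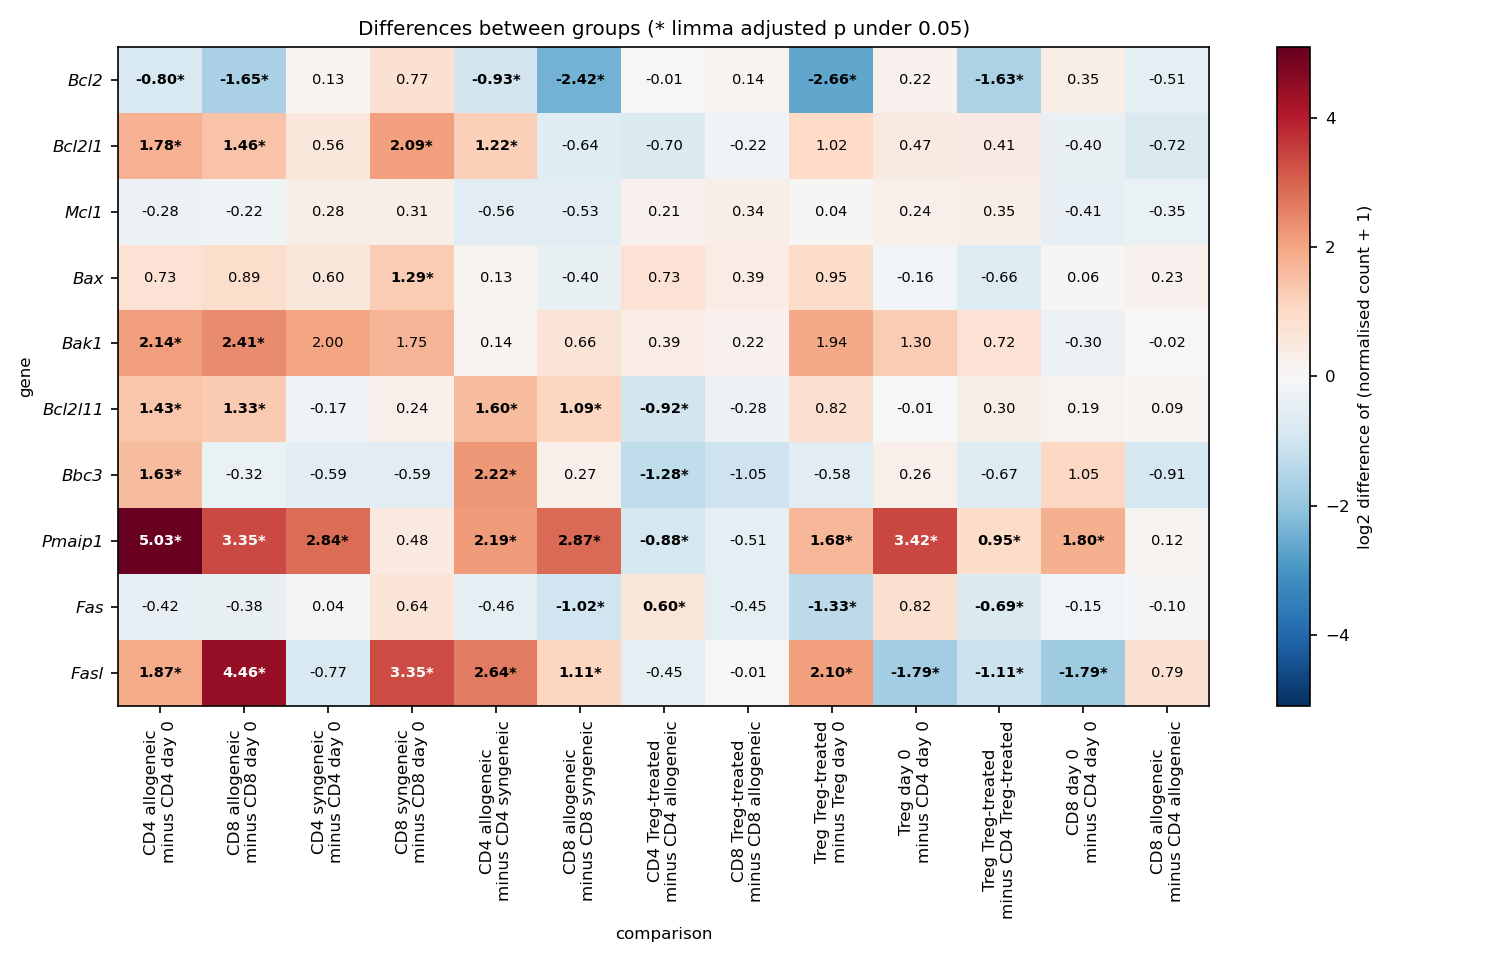
Log2 differences (colour and number, on the log2(value + 1) scale) of the 10 genes in 13 comparisons of 2 groups, with an asterisk where limma's adjusted p was under 0.05. The deepest red is Pmaip1 in CD4 allogeneic against day 0 (5.03), the deepest blue is Bcl2 in Treg after transplantation against day 0 (-2.66), and Mcl1 has no asterisk.

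Read by comparison, allogeneic cells were first set against day 0 cells. In CD4 cells 6 of the 10 genes were higher (Bcl2l1, Bak1, Bcl2l11, Bbc3, Pmaip1 and Fasl) and 1 lower (Bcl2), where 24.0% of the 16741 genes tested were called, 14.4% higher and 9.61% lower. Only 4 were called on leaving out any one of CD4 day 0 JL019, CD4 day 0 JL027 and CD4 allogeneic JL019-1. All-gene calls fell as well, from 4013 to between 2178 and 3794 over the fits that left out 1 library, lowest without CD4 day 0 JL027. The median of the 10 log2 differences was 1.53 against -0.04 over all genes. In CD8 cells 5 were higher (those without Bbc3) and Bcl2 was lower, where 30.4% of the 16741 genes tested were called, 16.3% higher and 14.2% lower, with a median of 1.11 against -0.13. The CD8 count was 4 without CD8 day 0 JL019, where 2795 of all genes were called against 5097 in the main fit. With the library mean as a covariate, or with the myeloid sum, Bak1, Bbc3 and Bcl2 were not called in CD4 cells. These comparisons share the day 0 libraries with those of syngeneic cells. In syngeneic CD4 cells 1 of 10 was called, Pmaip1, a share close to that of all genes (13.0% of the 16741 genes tested were called, 9.90% higher and 3.13% lower; median 0.21 against -0.04). Leaving out CD4 syngeneic JL019-2 gave 2 of 10 (median 0.27) against 7.93% of all genes (median -0.0039), and Bcl2 was called higher as well (log2 difference 0.64, adjusted p = 0.0490). In syngeneic CD8 cells 3 were called, all higher (Bcl2l1, Bax and Fasl; 24.2% of the 16741 genes tested were called, 13.0% higher and 11.3% lower; median 0.71 against -0.10). The count of all genes called in this comparison moved from 4053 to 1001 without CD8 day 0 JL019, 2612 without CD8 syngeneic JL019-1 and 2123 without CD8 syngeneic JL027. The B cell marker sum, of 12 genes, was 41641 to 46533 in CD4 and 71045 to 81372 in CD8 day 0 libraries, and 9523 to 13018 and 9094 to 11435 in the allogeneic ones. The B cell sums here and below are mostly immunoglobulin transcripts: Ighm reached 62814 and Iglc2 15338, whereas Cd79a reached only 316 and Ms4a1 331 in any library. The sum of 10 proliferation genes was 8729.6 to 9609 in CD4 day 0 and 48428 to 62702 in CD4 allogeneic libraries, and 19012 to 22642 and 86762 to 124244 in the CD8 groups. The sum of 10 erythroid genes was 47191 to 53864 in CD8 day 0, 2469.7 to 3288 in CD4 day 0 and 787 to 15499 in CD8 allogeneic libraries. Their part in the differences from day 0 was not tested.

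The comparison of allogeneic with syngeneic recipients asks what the mismatch adds to transfer. In CD4 cells 5 genes were higher (Bcl2l1, Bcl2l11, Bbc3, Pmaip1 and Fasl) and Bcl2 lower, where 14.6% of the 16741 genes tested were called, 6.69% higher and 7.91% lower. The median of the 10 was 0.68 against -0.0014. Without CD4 syngeneic JL019-2, 5 of 10 (median 0.56) were called against 10.9% of all genes (median -0.01). With the myeloid sum as a covariate, Bcl2l1 (log2 difference 0.07, adjusted p = 0.940) and Bcl2l11 (log2 difference 1.58, adjusted p = 0.0540) were not called. In CD8 cells 3 were higher (Bcl2l11, Pmaip1 and Fasl) and 2 lower (Bcl2 and Fas), where 21.1% of the 16741 genes tested were called, 10.4% higher and 10.7% lower, and the median was -0.06 against 0.02. The B cell sum was 19614 to 27035 in CD8 syngeneic and 9094 to 11435 in CD8 allogeneic libraries, and the proliferation sum 58093 to 70769 and 86762 to 124244, neither with an overlap. The CD4 B cell sum was 18506 to 40969 and 9523 to 13018 and the proliferation sum 60181 to 77721 and 48428 to 62702. Their part in the differences was not tested. With each library centred on its median, the all-gene calls in CD4 cells split into 1441 higher and 1042 lower. The difference of the effects was called for 3 genes, all with the lower value in CD8 cells (Bcl2, Bcl2l1 and Fasl), where 4.65% of the 16741 genes tested were called, 2.69% higher and 1.96% lower. Its median over the 10 genes was -0.54 against 0.01, and under median centring the all-gene calls split into 317 higher and 429 lower. With the title number as a replicate block these 3 genes were still called, and Bbc3 was called as well. Leaving out CD4 syngeneic JL019-2 gave 3 of 10 (median -0.64), against 3.97% of all genes (median 0.02), with Bcl2, Bcl2l1 and Bbc3 called and Fasl lost (log2 difference -1.21, adjusted p = 0.104). Between the allogeneic groups themselves, CD8 against CD4, limma called 0 of 10 and 4 had an unadjusted p under 0.05 (6.15% of the 16741 genes tested were called, 3.05% higher and 3.09% lower; median -0.06 against -0.03). With the title number as a replicate block, 1 was called, Fasl, and with only the groups compared in the fit, 3 were called.

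**Figure D4:**
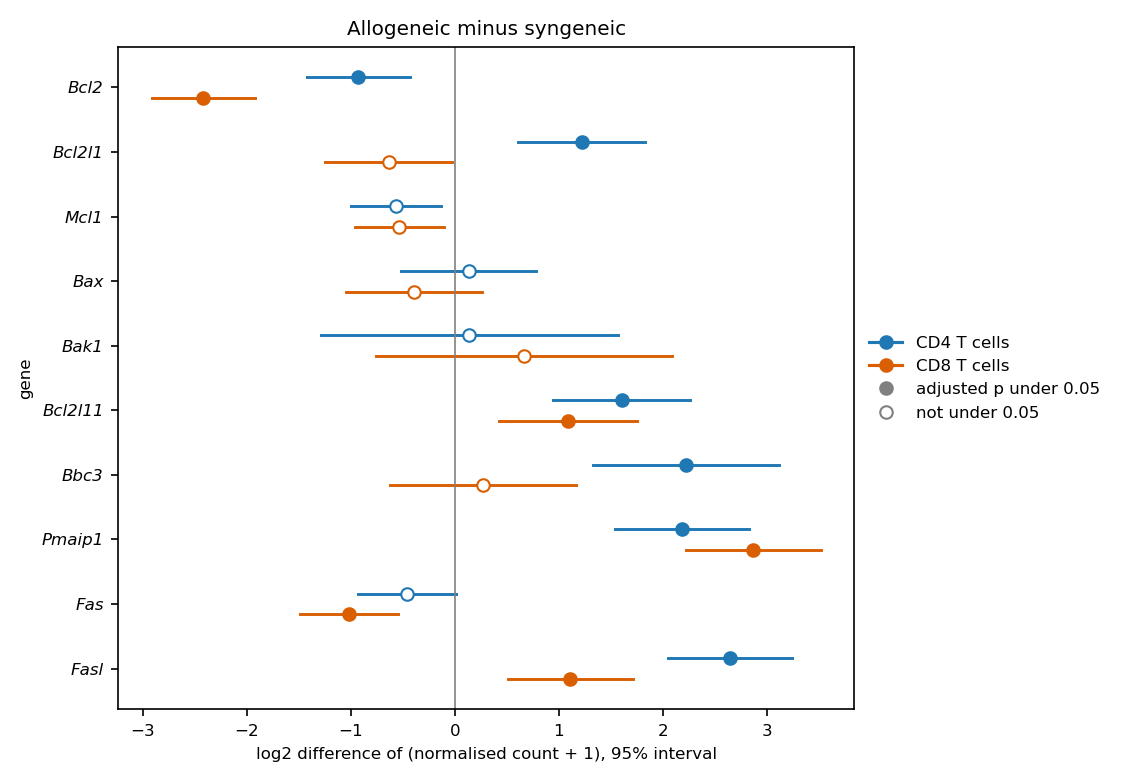
Log2 difference of allogeneic minus syngeneic cells for the 10 genes, with 95% intervals (lines), in CD4 (blue) and CD8 cells (orange). Filled points passed limma's adjusted p under 0.05. Bcl2 lies left of 0 in both cell types, at -0.93 in CD4 and -2.42 in CD8 cells, and Bcl2l1 lies on opposite sides of 0, at 1.22 and -0.64.

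Giving Treg was tested against allogeneic recipients, with the same allogeneic libraries as above. In CD4 cells the 3 BH3-only genes fell (Bcl2l11, Bbc3 and Pmaip1) and Fas rose, 4 calls in all, where 22.2% of the 16741 genes tested were called, 10.7% higher and 11.5% lower. With each library centred on its median, the all-gene calls split into 2500 higher and 1371 lower. The median of the 10 was -0.23 against -0.0018. These 4 calls were near the threshold and rested on single libraries. None of the 10 genes was called without any one of CD4 Treg-treated JL019-1, JL019-2 and JL027-2 and CD4 allogeneic JL019-1 and JL019-2, and 2 were called without CD4 allogeneic JL027-2. The all-gene calls moved too, from 3710 to 470 without CD4 Treg-treated JL019-2 and to 5633 without CD4 Treg-treated JL027-1. Over all fits that left out 1 library, Bcl2l11 had log2 differences of -1.11 to -0.75 (adjusted p 0.0212 to 0.109) and Bbc3 had log2 differences of -1.54 to -0.95 (adjusted p 0.0201 to 0.109). Over the same fits Pmaip1 had log2 differences of -1.11 to -0.76 (adjusted p 0.00586 to 0.106) and Fas had log2 differences of 0.50 to 0.67 (adjusted p 0.0320 to 0.133). Bbc3 was also lost without CD4 Treg-treated JL027-1 and Pmaip1 without CD4 allogeneic JL027-1. The sign held in both label prefixes for each of the 4, which were called on the same libraries. It also held for Bcl2l1, Mcl1, Bax and Bak1, which were not called, and differed for Bcl2 and Fasl. The proliferation sum was 74744 to 84649 in the Treg-treated and 48428 to 62702 in the allogeneic CD4 libraries, the B cell sum 14491 to 18319 and 9523 to 13018, and the erythroid sum 6139.9 to 64355 and 696 to 11213. The erythroid sum was also higher with Treg within each label prefix, and the part of these sums in the Treg effect was not tested. The myeloid marker sum was 24371 to 89359 and 5832 to 11572, and 1 of these 4 calls, Bbc3, remained with it as a covariate, an alternative chosen after the data were seen. In CD8 cells limma called 0 of 10, where 0.0657% of the 16741 genes tested were called, 0.0478% higher and 0.0179% lower, and 2 had an unadjusted p under 0.05 (Bbc3 and Fas). The CD8 median was -0.12 against -0.01. The difference of the Treg effects between CD8 and CD4 cells was called for 0 of 10, where 0.00597% of the 16741 genes tested were called, 0.00% higher and 0.00597% lower, with 1 at an unadjusted p under 0.05 (Fas), and its median was 0.19 against 0.01.

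**Figure D5:**
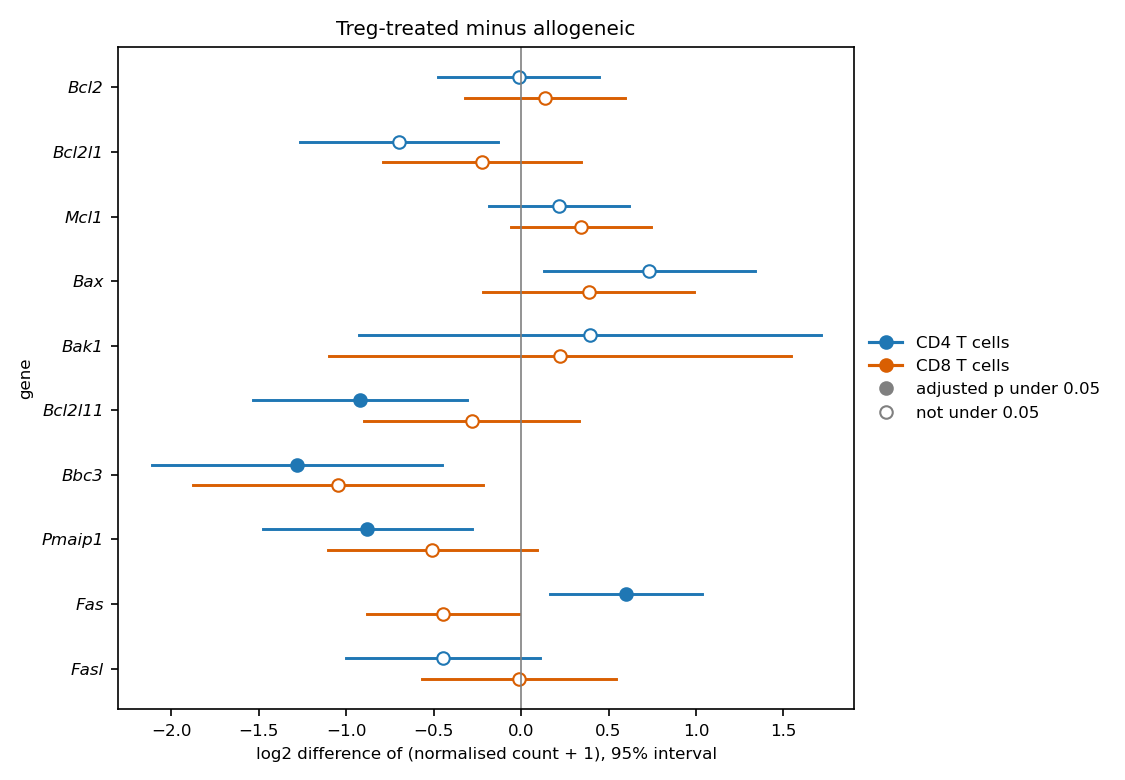
Log2 difference of Treg-treated minus allogeneic cells for the 10 genes, with 95% intervals (lines), in CD4 (blue) and CD8 cells (orange). Filled points passed limma's adjusted p under 0.05. The 4 filled points are all CD4, with Bbc3 at -1.28, Bcl2l11 at -0.92, Pmaip1 at -0.88 and Fas at 0.60.

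Treg themselves, after transplantation against day 0, had 2 of the 10 genes higher (Pmaip1 and Fasl) and 2 lower (Bcl2 and Fas), where 13.3% of the 16741 genes tested were called, 8.43% higher and 4.89% lower, with a median of 0.89 against -0.07. More of the 10 genes were called with only the groups compared in the fit. From day 0 to after transplantation, the marker sums of the Treg libraries were 12478 to 15057 and 37827 to 41804 for proliferation, 497 to 724 and 131 to 160.5 for natural killer cells, and 289 to 723 and 2681 to 52294 for erythroid genes, the last highest in Treg-treated JL027. Their part in these differences was not tested. Against CD4 cells of Treg-treated recipients, which share 2 title numbers with the Treg libraries, Pmaip1 was higher (log2 difference 0.95, SE 0.31, adjusted p = 0.0246) and Bcl2, Fas and Fasl were lower, where 30.0% of the 16741 genes tested were called, 13.9% higher and 16.1% lower. Leaving out CD4 Treg-treated JL019-1, JL019-2 and JL027-2 and Treg Treg-treated JL019-1 and JL019-2 one at a time ended this Pmaip1 call (log2 differences 0.83 to 0.94, adjusted p 0.0519 to 0.0828). With the library mean or the myeloid sum as a covariate, Pmaip1 and Fas were not called. The B cell sum was 27568 to 39586 in Treg and 14491 to 18319 in CD4 libraries of this arm, and the myeloid sum 2175 to 7452 and 24371 to 89359. The natural killer cell sum was 131 to 160.5 in Treg and 460 to 1524 in these CD4 libraries, and the proliferation sum 37827 to 41804 and 74744 to 84649. The part of these sums in the differences between Treg and CD4 cells was not tested. The median was -0.18 against 0.14, and under median centring the all-gene calls split into 1648 higher and 3387 lower. At day 0 Treg differed from CD4 cells in Pmaip1 (higher) and Fasl (lower), where 3.89% of the 16741 genes tested were called, 2.54% higher and 1.34% lower (median 0.25 against 0.07). The B cell sum was 30107.5 to 33360 in these Treg and 41641 to 46533 in these CD4 libraries, and the erythroid sum 289 to 723 and 2469.7 to 3288. The proliferation sum was 12478 to 15057 and 8729.6 to 9609, and the myeloid sum 2586 to 3369 and 1301 to 2065. Their part in the day 0 differences was not tested. CD8 cells at day 0 were called against the same CD4 libraries for Pmaip1 (higher) and Fasl (lower), where 3.32% of the 16741 genes tested were called, 2.22% higher and 1.10% lower (median -0.04 against 0.07). Under median centring the all-gene calls of this comparison split into 276 higher and 250 lower. The signs of all 47 calls on the 10 genes were the same within JL019 and within JL027. The calls were made on the libraries of both prefixes together, so this agreement is not independent support.

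The wider pathway was described by 5 lists. Of the other Bcl2 family genes, 2 of 12 passed the test against 14.6% of all genes (2 higher and 0 lower, median 0.37 against -0.0014 over all genes) in CD4 and 3 of 12 passed the test against 21.1% of all genes (3 higher and 0 lower, median 0.26 against 0.02 over all genes) in CD8 allogeneic against syngeneic cells. The called genes included Bcl2a1d (log2 difference 2.09, SE 0.33, adjusted p = 4.82e-05 in CD4; log2 difference 4.46, SE 0.33, adjusted p = 6.76e-11 in CD8) and Bcl2a1b (log2 differences 2.17 and 2.78), pro-survival A1 genes that are near-identical copies, so their split between copies is uncertain. Of the caspases, apoptosome genes and inhibitors, 3 of 16 passed the test against 14.6% of all genes (3 higher and 0 lower, median 0.36 against -0.0014 over all genes) in CD4 and 5 of 16 passed the test against 21.1% of all genes (4 higher and 1 lower, median 0.25 against 0.02 over all genes) in CD8 cells. Apaf1, the core of the apoptosome, rose in CD8 cells (log2 difference 1.84, SE 0.32, adjusted p = 9.32e-05). The CD8 count of this list was 3 without any one of CD8 allogeneic JL019-1 and CD8 syngeneic JL019-2 and JL027, and the CD4 count was 1 without CD4 allogeneic JL019-1 or JL027-2. Without CD4 syngeneic JL019-2, which went against its label, the CD4 counts were 5 of 12 (median 0.75) for the other Bcl2 family genes and 1 of 16 (median 0.20) for the caspases and partners, against 10.9% of all genes (median -0.01). Bcl2a1d (log2 difference 2.05, adjusted p = 0.000352) and Bcl2a1b (log2 difference 2.08, adjusted p = 0.000131) were still called in CD4 cells without it.

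Of the genes of death receptor signalling, 3 of 14 passed the test against 14.6% of all genes (1 higher and 2 lower, median -0.22 against -0.0014 over all genes) in CD4 and 4 of 14 passed the test against 21.1% of all genes (0 higher and 4 lower, median -0.26 against 0.02 over all genes) in CD8 cells. Tnf (log2 difference -1.49, SE 0.32, adjusted p = 0.00153 in CD4; log2 difference -2.29, SE 0.32, adjusted p = 4.40e-06 in CD8) and its receptor Tnfrsf1a (log2 difference -1.54, SE 0.31, adjusted p = 0.000890 in CD4; log2 difference -1.53, SE 0.31, adjusted p = 0.000589 in CD8) both fell. The CD4 falls were smaller without CD4 syngeneic JL019-2 for Tnf (log2 difference -1.06, adjusted p = 0.0277) and Tnfrsf1a (log2 difference -1.20, adjusted p = 0.0143). Tnfsf10, the ligand Trail, had effects that differed between the cell types (log2 difference -1.65, SE 0.30, adjusted p = 0.000985; without CD4 syngeneic JL019-2 log2 difference -1.33, adjusted p = 0.00229). Of p53 and its targets, 1 of 13 passed the test against 14.6% of all genes (1 higher and 0 lower, median 0.32 against -0.0014 over all genes) in CD4 and 7 of 13 passed the test against 21.1% of all genes (3 higher and 4 lower, median 0.24 against 0.02 over all genes) in CD8 cells. They included Perp (log2 difference 2.72, SE 0.31, adjusted p = 1.62e-07) and Sesn1 (log2 difference -1.82, SE 0.28, adjusted p = 2.33e-05) in CD8 cells and Ei24 in CD4 cells (log2 difference 0.96, SE 0.28, adjusted p = 0.0165). Leaving out CD4 allogeneic JL019-1 and CD4 syngeneic JL019-2 one at a time ended this Ei24 call (log2 differences 0.49 to 0.90, adjusted p 0.0503 to 0.254). Of the transcription factors of Bcl2l11, whose FOXO letters are shown above, 1 of 4 passed the test against 14.6% of all genes (0 higher and 1 lower, median -0.37 against -0.0014 over all genes) in CD4 and 2 of 4 passed the test against 21.1% of all genes (0 higher and 2 lower, median -0.66 against 0.02 over all genes) in CD8 cells. Foxo3 was lower in CD4 (log2 difference -1.16, SE 0.32, adjusted p = 0.0140). Leaving out CD4 allogeneic JL027-1 and CD4 syngeneic JL019-2 one at a time ended this Foxo3 call (log2 differences -0.99 to -0.65, adjusted p 0.0537 to 0.203). In CD8 cells Foxo3 (log2 difference -0.90, SE 0.32, adjusted p = 0.0469) and Foxo1 (log2 difference -1.15, SE 0.39, adjusted p = 0.0373) were lower. Leaving out CD8 allogeneic JL019-1, JL027-1 and JL027-2 and CD8 syngeneic JL019-1 and JL027 one at a time ended this Foxo3 call (log2 differences -0.96 to -0.67, adjusted p 0.0607 to 0.166). Leaving out CD8 allogeneic JL027-1 and CD8 syngeneic JL019-1, JL019-2 and JL027 one at a time ended this Foxo1 call (log2 differences -1.31 to -0.82, adjusted p 0.0506 to 0.141). Without CD4 syngeneic JL019-2 the CD4 counts were 2 of 14 (median -0.25) for death receptor signalling, 1 of 13 (median 0.11) for p53 and its targets and 1 of 4 (median -0.31) for the transcription factors, against 10.9% of all genes (median -0.01).

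Against day 0, Birc5, an inhibitor of apoptosis that is also made in dividing cells, rose in CD4 allogeneic cells (log2 difference 4.62, SE 0.34, adjusted p = 3.72e-11), as did Perp (log2 difference 4.46, SE 0.35, adjusted p = 1.20e-10) and the cell cycle inhibitor Cdkn1a (log2 difference 4.94, SE 0.60, adjusted p = 3.43e-07). In CD4 syngeneic cells, set against the same day 0 libraries, the differences were 4.52, 3.77 and 4.04 on the log2 scale, each called with and without CD4 syngeneic JL019-2. The same 3 genes rose in Treg after transplantation, by 2.62, 2.22 and 3.46 on the log2 scale. Of the caspases and their partners, 6 of 16 passed the test against 13.3% of all genes (6 higher and 0 lower, median 0.52 against -0.07 over all genes) in Treg. Tnfsf10 rose (log2 difference 1.51, SE 0.25, adjusted p = 9.74e-05) and Tnfrsf25, the death receptor DR3, fell (log2 difference -1.55, SE 0.39, adjusted p = 0.00710). Without Treg day 0 JL027 the Tnfrsf25 call was lost (log2 difference -1.42, adjusted p = 0.0875). With Treg given, 5 of 12 passed the test against 22.2% of all genes (3 higher and 2 lower, median 0.44 against -0.0018 over all genes) in CD4 cells among the other Bcl2 family genes. In death receptor signalling 4 of 14 passed the test against 22.2% of all genes (3 higher and 1 lower, median 0.34 against -0.0018 over all genes), and of the caspases and partners 5 of 16 passed the test against 22.2% of all genes (1 higher and 4 lower, median -0.10 against -0.0018 over all genes). Of p53 and its targets 2 of 13 passed the test against 22.2% of all genes (1 higher and 1 lower, median -0.40 against -0.0018 over all genes), and of the transcription factors 0 of 4. On leaving out single libraries these counts were 0 to 5, 0 to 6, 0 to 8 and 0 to 8 in the same order, where 470 to 5633 of all genes were called. Examples were Bcl2a1d (log2 difference 1.16, SE 0.30, adjusted p = 0.0149), Cycs, which encodes cytochrome c (log2 difference 1.10, SE 0.27, adjusted p = 0.0129), and Casp2 (log2 difference -1.65, SE 0.41, adjusted p = 0.0132). Single libraries decided these calls too. That of Bcl2a1d was lost without any one of CD4 Treg-treated JL019-1 and JL019-2 (log2 differences 1.01 to 1.05, adjusted p 0.0592 to 0.0623), that of Cycs without CD4 Treg-treated JL019-2 (log2 difference 0.99, adjusted p = 0.0559) and that of Casp2 without any one of CD4 Treg-treated JL019-1 and JL019-2 (log2 differences -1.47 to -1.37, adjusted p 0.0538 to 0.0596). In CD8 cells given Treg, limma called 0 genes of the 5 lists.

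The members' patterns over the 10 group means were also set against 9903 other genes with a mean of at least 100. These correlations are descriptions over groups that share libraries and cell types. The genes with the most similar pattern, with Pearson's r, were Smyd5 (0.962) and Akr1c13 (0.961) for Bcl2, Tox4 (0.921) and Phf11a (0.921) for Bcl2l1, Ptpre (0.920) and Bag3 (0.906) for Mcl1, Psmb8 (0.984) and Commd5 (0.982) for Bax and Hspa2 (0.986) and Ugp2 (0.978) for Bak1. For the BH3-only genes they were Ddx52 (0.976) and Med12l (0.972) for Bcl2l11, Cnot6l (0.878) and Dpp4 (0.850) for Bbc3 and Ryk (0.973) and Aifm2 (0.964) for Pmaip1. For Fas they were Fam172a (0.887) and Rxylt1 (0.883), and for Fasl Edem2 (0.966) and Plekhf1 (0.966). Among the 10 genes, the patterns of Bcl2l11 and Fasl (r = 0.827) and of Bak1 and Pmaip1 (r = 0.853) were the most alike, Bcl2 and Fas had r = 0.707, and Bcl2 and Pmaip1 ran opposite (r = -0.723).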

How the data were processed

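Bulk RNA of 31 libraries in 10 groups was analysed from 1 table, with groups taken from the labels' cell type and treatment. RNA was extracted with TRizol and RNeasy MinElute columns, cDNA was made with SMARTer v4 and libraries with Nextera XT, per the labels' protocols. kallisto, DESeq2, FastQC 0.11.7 and the builds GRCm38 and mm10 are named, without their roles, per the submitters' processing notes. The signal in the table is normalised counts, scaled by the authors across libraries. Its other columns have the names of a DESeq2 result, per the file headers. For each gene, its base mean in the table is the average of its library columns. Reads could not be recovered, so no count test was run and the depth is unknown. T-cell receptor tables and the authors' test columns, which name no groups, were not used here.

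From these values log2(value + 1) was computed, and limma 3.58.1 in R 4.3.3 (trend and robust options) was fitted as a group-means model over all 31 libraries with 15 contrasts. A mean of at least 1 was required, which removed 0 genes, and p-values were adjusted over 16741 genes by Benjamini-Hochberg. With 1 added before the log, differences of low genes come out too small. The script was tested on simulated data. Folds are ratios of group means. Gene positions and promoter windows are those of RefSeq, GRCm38.p6. Python 3.11.15, numpy 2.4.6, pandas 2.3.3 and matplotlib 3.10.9 were used for the rest.

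The 10 genes and all lists were chosen with earlier results of these data known. Named genes were the 10 members, up to 2 called genes of lowest p per pathway list and comparison described, the 2 genes of most similar pattern per member, and the sort genes. Listed genes without a row in the table included Bcl2l10, Bok, Faim3 and Eda2r, and some listed genes are not reported here. Titles give most libraries of an arm a number that CD4, CD8 and Treg libraries share, without saying that it marks a recipient. Same-numbered CD8 and CD4 libraries deviated together in the allogeneic arm (r of 0.135 to 0.416 over 4 pairs), so the fit with the title number as a replicate block is given where it changes a call between cell types. Alternatives were a pseudocount of 0.1, a minimum mean of 10 or no minimum, only the groups compared, median centring, quantile normalisation, the library mean as a covariate, replicate blocks, leaving out each library, and, added after the data were seen, a gene span trend and a myeloid covariate.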

Additional observations from a re-analysis of the deposited data

Results flagged for a closer look

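In groups of 4 libraries, 40 sets of values of the 10 genes were searched for a library far from the other 3, which chance flags in about 1 in 20 sets. All 3 found were of CD8 allogeneic JL027-1. Its Bcl2l1 was 918 against 1722 to 1784 in the other 3 libraries, its Bbc3 was 151 against 389 to 465, and its Fasl was 7265 against 4730.5 to 4963. So 2 of these genes were low and 1 was high in that library.

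The allogeneic effects of CD8 and CD4 cells differed by limma's test for 3 genes, each with the lower value in CD8 cells: Bcl2 (log2 -1.49), Bcl2l1 (log2 -1.86) and Fasl (log2 -1.53). For Bcl2 and Fasl the effects of both cell types had the same sign, and for Bcl2l1 the signs were opposite. The Fasl difference missed the threshold without CD4 syngeneic JL019-2 (log2 -1.21, adjusted p = 0.104).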

How the results depend on the processing

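Counts of the 10 genes called were recomputed under each alternative. With the library mean or, chosen after seeing the data, the myeloid marker sum as a covariate, they were 4 and 4 for CD4 allogeneic against day 0 (7 in the main analysis), 2 and 3 for CD4 syngeneic against day 0 (1), 1 and 1 for the Treg effect in CD4 cells (4), and 2 and 2 for Treg against CD4 cells of Treg-treated recipients (4). With only the groups compared in the fit, 7 were called in Treg against day 0 (4) and 3 for CD8 against CD4 allogeneic libraries (0). That last count was 2 with the myeloid covariate and 1 with the title number as a replicate block. All-gene counts of these comparisons under those fits are not given here, so the counts stand without a share of all genes. A replicate block on the full label, over only the groups compared, left 0 in CD4 allogeneic against syngeneic (6). These groups share only 2 full labels, among them JL019-2, whose CD4 syngeneic library went against its label. That fit therefore had little power, and its 0 says little about the calls. With the title number as a replicate block, the calls gained on the 10 genes were Fasl in CD8 against CD4 allogeneic libraries and Bbc3 in the difference of allogeneic effects, and none was lost. Deviations of same-numbered CD8 and CD4 libraries correlated at -0.107 to 0.428 in the Treg-treated and -0.114 to 0.145 in the syngeneic arm, and those of Treg and CD4 libraries at -0.0682 to -0.0570. Libraries of different arms share only a number, and their deviations correlated at -0.0964 to 0.00275 for CD4 and -0.167 to 0.184 for CD8 Treg-treated and allogeneic libraries. Leaving out each library gave 4 to 7 in CD4 and 4 to 6 in CD8 allogeneic against day 0, 1 to 2 and 2 to 4 in syngeneic against day 0, 5 to 7 and 4 to 5 in allogeneic against syngeneic, and 0 to 5 in CD4 and 0 in CD8 Treg-treated against allogeneic. It gave 3 to 4 for Treg against day 0, 1 to 2 for Treg and 0 to 2 for CD8 against CD4 cells at day 0, 2 to 5 for Treg against CD4 cells of Treg-treated recipients, 0 for CD8 against CD4 allogeneic, 2 to 3 for the difference of allogeneic effects and 0 for that of Treg effects. The cause of these changes was not tested. Of 2680 results of single members under alternatives, 2517 kept their side of the threshold, 103 lost a call, 60 gained one and 0 were called and changed sign. The 47 calls had 805 alternatives, and 702 were still called in the same direction. The alternative without a minimum repeats the main fit, because the minimum mean of 1 removed 0 genes. Any of its results in these tallies, and in the counts over all genes below, agree by construction. Among list genes, 5 changed sign with the myeloid covariate, each without a call: Bcl2a1a (-0.51), Bid (-0.72), Birc2 (0.094) and Cycs (-0.24) in CD4 syngeneic against day 0, and Ei24 (-0.20) in CD4 allogeneic against syngeneic.

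Over all genes, 33 of 158 counts under settings that keep every library moved by more than 1.5 times. For the Treg effect in CD4 cells, 3710 genes were called, against 570 with the library mean and 341 with the myeloid sum as a covariate and 470 to 5633 on leaving out each library. Leaving out each library gave 2178 to 3794 in CD4 and 2795 to 4924 in CD8 allogeneic against day 0 (4013 and 5097), 942 to 2733 and 1001 to 4869 in syngeneic against day 0 (2181 and 4053) and 1088 to 1704 in Treg against day 0 (2231). Centring libraries on their medians moved the comparisons by -0.20 to 0.22 on the log2 scale. It took the share of calls that were higher from 76.0% to 53.8% in CD4 and from 53.5% to 67.6% in CD8 syngeneic against day 0, and from 66.9% to 52.5% in CD8 against CD4 cells at day 0. Depth is unknown, so no interval for counting error can be given, and 2 or 3 libraries in a group limit the precision, most for the low Bak1.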
